A study of Mus musculus with 6 samples.

Results

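The transcripts described here encode 7 apolipoproteins (Apom, Apoa1, Apoa2, Apob, Apoc1, Apod and Apoe), the phospholipid transfer protein Pltp and the cholesterol acyltransferase Lcat, in kidneys of mice homozygous for a mutation (3 animals, titled KO) and of wild-type mice (3 animals). Members were taken by symbol, and the probe of each gene was to be chosen by its highest mean level over all 6 arrays. Each of the 9 genes had 1 probe that was annotated with 1 symbol, so this choice decided nothing, out of 34937 probes in the table and 14817 genes tested. Apom and Apoa2 were already known as decreases from an earlier reading of the same arrays when the genes were grouped, so the counts of members below describe these genes and are not independent evidence.

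In each animal part of a kidney was snap-frozen after its vessels had been rinsed with saline, and biotin-labelled complementary RNA was put on a single-colour CodeLink array, which carries spotted oligonucleotide probes. The sources used here do not give the mutated gene, strain, age, sex or any treatment, so the transcript of the mutated gene could not be set against the labels. All 6 arrays had deposited medians between 0.994 and 0.997. Levels are given as multiples of the array median or as their log2, and a low-signal limit of 1.51 times the median (0.59 log2), estimated from the shape of the dimmest values, marks where a probe could be read. That limit was passed by 37.6% to 41.8% of probes, depending on the array.

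Apolipoproteins are the protein coat of the particles that carry cholesterol, triglyceride and phospholipid in plasma. Apoa1 and Apoa2 form high-density lipoprotein (HDL), Apob forms the triglyceride-rich and low-density particles, and Apoe is the ligand by which remnants are taken up through receptors of the LDL receptor family. Lcat esterifies cholesterol on HDL, and Pltp moves phospholipid between particles. Liver and intestine make most of these proteins, but the proximal tubule makes apolipoprotein M, a lipocalin that binds sphingosine-1-phosphate, and also takes up filtered apolipoproteins through the receptors megalin (Lrp2) and cubilin (Cubn). Macrophages are a source of Apoe, Apoc1 and Pltp.

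Members moved in opposite directions between the genotypes. Pltp was several-fold higher in mutant kidney, Apom and Apoa2 were lower, and Apoa1, Apob, Apoc1, Apoe and Lcat did not pass the test over all 6 arrays. In a limma fit over all 25834 probes that passed a filter on dim and missing values, with Benjamini-Hochberg adjustment over all of them, 1 of 8 tested members rose past an adjusted p of 0.05, beside 5.67% of the 14817 genes tested. Of the 8 tested members, 2 fell, beside 1.59% of all genes. Apod was too dim for the filter and was not tested. The calls over all genes were 78.1% increases, and cyclic loess gave 65.2% and quantile normalization 63.5% for the same share. Every mutant array lay above every wild-type array for 2 of 8 members, Pltp and Lcat, beside 17.8% of 13470 genes with a value on all arrays, and below for Apom and Apoa2, beside 8.89%. The median member differed by -0.01 log2 and the median gene by 0.08. In whole tissue, fewer cells of a type and less RNA per cell cannot be told apart.

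**Figure D1:**
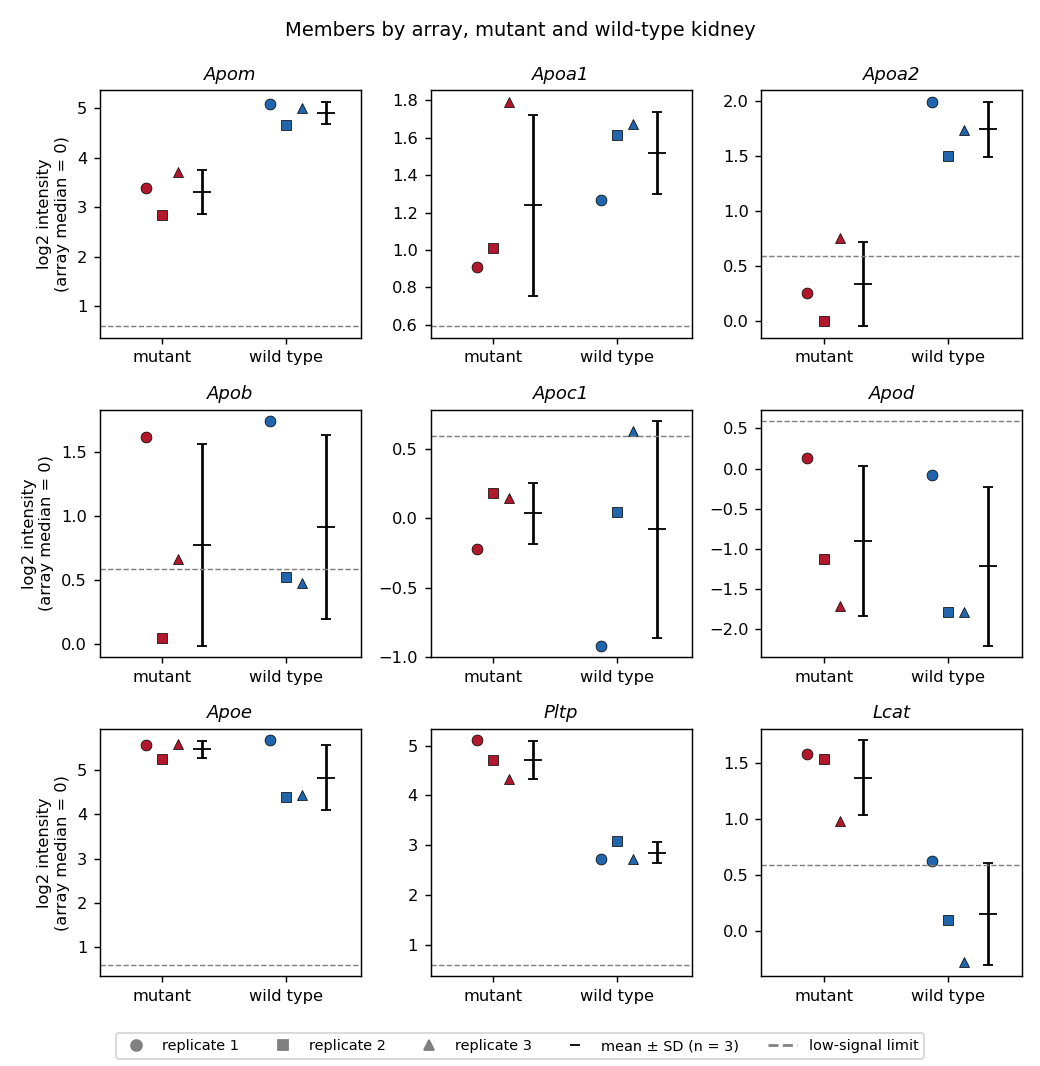
Log2 intensity of each of the 9 members on every array (vertical axes, array median at 0, a scale of its own in each panel), with mutant kidneys left of wild-type kidneys. Symbols give the replicate number, bars the mean ± SD of 3 arrays and the dashed line the low-signal limit of 0.59. The groups are apart for Apom, Apoa2, Pltp and Lcat, and replicate 1 of both genotypes stands above the other arrays for Apob and Apod. All Apod values lie below the limit, and values under a floor of 0.290 times the array median are drawn at that floor.

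Apom, which carries sphingosine-1-phosphate on HDL, had 10.5, 7.12 and 13.1 times the array median in mutant kidneys and 33.7, 25.2 and 31.9 times in wild-type kidneys. The brightest mutant kidney was thus well below the dimmest wild-type kidney. The mean log2 level was 3.31 ± 0.44 in mutants and 4.91 ± 0.22 in wild type (SD, n = 3 each), a 3.02-fold lower level in mutants. The limma difference was -1.60 ± 0.20 log2 (SE), with a 95% interval of -2.03 to -1.17 and an adjusted p of 0.000248, and it was the decrease of rank 35 among the 14817 genes. Same-numbered animals differed by -1.68, -1.82 and -1.29. The call was lost with no intensity trend in the variance (adjusted p = 0.0728) and in no other of the 21 alternatives, where the adjusted p was at most 0.00649.

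Apoa2, the second major protein of HDL and mainly a liver product, was much closer to background. It had 1.196, 1.00 and 1.69 times the array median in mutant kidneys, against 3.99, 2.82 and 3.34 times in wild-type kidneys. The low-signal limit was passed on 1 of 3 mutant arrays and on 3 of 3 wild-type arrays, and the mutant mean lay below it. The mean level of these animals was thus at least 2.14-fold lower in mutants. A bound of this kind, here and below, allows for the low-signal limit and not for the spread between animals. The 95% interval of the fitted fold began at 1.66. The fitted difference was -1.41 ± 0.31 log2 (limma, adjusted p = 0.0172, a 95% interval of -2.08 to -0.73). The call did not hold without mutant replicate 2 (adjusted p = 0.0717), without wild-type replicate 1 (0.0633) or 3 (0.0591), with only replicates 2 and 3 of each genotype (0.0986) or with no intensity trend (0.0845), and over all alternatives the adjusted p ran from 0.0103 to 0.0986.

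Among the genes measured on all arrays, those whose log2 pattern was most like Apom over the 6 arrays were Cnot4 (Pearson r = 0.996), Apoa2 (0.992), Lipf (0.992) and Tmem86a (0.992). A correlation over 6 arrays in 2 genotypes mainly reflects the genotype difference, and it is given as a description only. Cnot4, Apoa2 and Tmem86a fell. Lipf lay below the low-signal limit on all arrays, as Cnot4 did on every mutant array, and Apoa2 passed it on 1 of 3 mutant arrays. The order of the mutants could thus be read for Apom and Tmem86a only, and that of the wild-type animals for Apoa2 and Cnot4 as well.

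Pltp, the transfer protein that supplies HDL with phospholipid, moved the other way. It had 34.4, 26.0 and 20.1 times the array median in mutant kidneys, against 6.57, 8.49 and 6.64 times in wild-type kidneys. The lowest mutant kidney was well above the highest wild-type kidney. The mean log2 level was 4.71 ± 0.39 in mutants and 2.84 ± 0.21 in wild type (SD, n = 3 each), or 3.65-fold higher in mutants. The limma difference was 1.87 ± 0.19 log2, with a 95% interval of 1.46 to 2.27 and an adjusted p of 4.24e-05. It passed in all 21 alternatives, with differences between 1.61 and 2.06 and adjusted p between 2.22e-06 and 0.0472, and was the increase of rank 175. The genes most like it in log2 pattern over the 6 arrays were Dcn, the matrix proteoglycan decorin (r = 1.00 after rounding), Irf9 (0.999), Vav1 (0.998) and Dkk3 (0.998), all 4 of which rose. Vav1 lay below the low-signal limit on every wild-type array, and Irf9 passed it on 1 of 3 wild-type arrays.

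The annotated 5′ regions of these genes that passed the test are shown for reference, each covering 250 bases before and 50 after a transcription start in RefSeq (GRCm38.p6), written 5′ to 3′ on the gene's strand. Capitals mark the word TATAAA on either strand.
Apom, chr17:35131752-35132051, minus strand: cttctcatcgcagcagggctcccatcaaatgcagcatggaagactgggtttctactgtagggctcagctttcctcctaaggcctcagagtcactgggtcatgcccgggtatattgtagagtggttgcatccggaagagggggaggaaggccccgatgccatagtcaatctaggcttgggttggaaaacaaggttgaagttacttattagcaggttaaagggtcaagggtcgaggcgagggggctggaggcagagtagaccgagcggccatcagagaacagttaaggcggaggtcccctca
Apoa2, chr1:171224804-171225103, plus strand: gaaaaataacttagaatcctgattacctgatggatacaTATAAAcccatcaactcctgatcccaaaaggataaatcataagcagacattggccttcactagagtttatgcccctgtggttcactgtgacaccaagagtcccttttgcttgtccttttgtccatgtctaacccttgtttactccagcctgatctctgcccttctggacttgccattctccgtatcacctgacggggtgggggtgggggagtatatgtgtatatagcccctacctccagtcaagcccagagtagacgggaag
Pltp, chr2:164857659-164857958, minus strand: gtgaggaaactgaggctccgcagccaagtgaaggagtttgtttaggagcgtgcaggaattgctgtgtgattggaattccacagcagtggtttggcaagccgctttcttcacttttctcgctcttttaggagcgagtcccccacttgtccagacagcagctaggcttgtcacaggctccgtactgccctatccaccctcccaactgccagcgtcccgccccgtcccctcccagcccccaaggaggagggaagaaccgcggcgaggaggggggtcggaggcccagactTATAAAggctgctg

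The Apoa2 region is the downstream one of 2 listed starts. A script searched 11 such regions of 8 members, Apoc1 having none in the table, for 3 words on both strands. TATAAA was found in 4 of the 11 regions, 1 each of Apoa2, Pltp, Apoe and Apob, and in 13.6% of all 32851 regions. In Apoa2 it began 212 bases before the start, and in Pltp it lay after the listed start. GTTAAT, the core word of sites bound by HNF1 factors, was found in 1 of the 11, a region of Apoe, and in 7.1% of all regions. CAAAGTCCA, a word bound by HNF4, was in none of the members' regions and in 0.475% of all. A word is a description of these letters and shows neither binding nor its absence.

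Lcat, which attaches a fatty acid to cholesterol on HDL, was 2.99, 2.90 and 1.98 times the array median in mutant kidneys, against 1.55, 1.07 and 0.829 times in wild-type kidneys. All 3 mutant arrays passed the low-signal limit, as did 1 of 3 wild-type arrays. The mean level of these mutants was thus at least 1.70-fold that of wild type, leaving the spread between animals aside. The 95% interval of the fitted fold began at 1.36. The groups did not overlap, yet the difference of 1.21 ± 0.36 log2 (95% interval 0.44 to 1.99) missed the threshold (limma, adjusted p = 0.0739). It passed with array weights (adjusted p = 0.023) and without wild-type replicate 1 (0.0379), and the adjusted p reached 0.259 without mutant replicate 2.

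For Apoe, 1 wild-type animal decided the comparison. The level was 47.4, 38.0 and 48.3 times the array median in mutant kidneys, against 51.1, 21.0 and 21.6 times in wild-type kidneys. Wild-type replicate 1 was thus above all mutants, while the other wild-type animals were well below them. Over all 6 arrays the difference was 0.64 ± 0.27 log2 and did not pass (limma, adjusted p = 0.233, 95% interval 0.06 to 1.21). Without wild-type replicate 1 it was 1.06 ± 0.15 (adjusted p = 0.00129, 2 wild-type arrays left), and it was 1.01 ± 0.15 where only the animals numbered 2 and 3 were fitted (adjusted p = 0.00491). With array weights, which count a divergent array for less, it was 0.82 ± 0.22 (adjusted p = 0.0334), and over the other alternatives the adjusted p was at least 0.0569.

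Apob, the backbone of low-density lipoprotein, was high in replicate 1 of both genotypes. Its probe, annotated to a sequence other than a RefSeq messenger RNA, had 3.07, 1.04 and 1.58 times the array median in mutant kidneys and 3.35, 1.44 and 1.39 times in wild-type kidneys. The low-signal limit was passed on 2 of 3 mutant arrays and on 1 of 3 wild-type arrays. The difference between genotypes was -0.14 ± 0.45 log2 (limma, adjusted p = 0.922), with a 95% interval of -1.11 to 0.83 that runs from 2.16-fold lower to 1.78-fold higher in mutants. Leaving out 1 array turned the sign in 2 cases, to 0.22 without mutant replicate 2 and to 0.27 without wild-type replicate 1.

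Replicate 1 also differed from the other animals in sex-linked transcripts. Xist, the RNA of the inactive X chromosome, had 7.98 times the array median in mutant replicate 1 and 4.64 times in wild-type replicate 1, and at most 0.862 times on the other 4 arrays. A second, dimmer Xist probe lay below the low-signal limit on all arrays and did not show this pattern. Eif2s3y, a Y-linked gene, had 0.162 times in mutant replicate 1 and 0.0435 times in wild-type replicate 1, and between 8.05 and 11.02 times on the others. The labels give no sex. The pattern is balanced between the genotypes, and its part in the Apob and Apoe values was not tested.

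**Figure D2:**
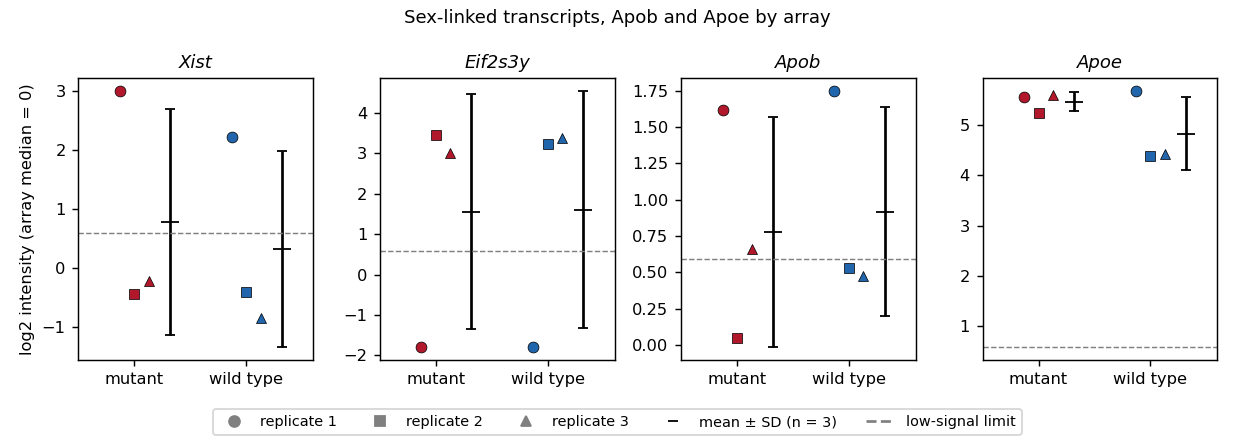
Log2 intensity of Xist, Eif2s3y, Apob and Apoe on every array (vertical axes, array median at 0), mutant kidneys left of wild-type kidneys, with symbols for the replicate number, mean ± SD (n = 3) and the low-signal limit. Replicate 1 of each genotype is high for Xist and Apob and low for Eif2s3y, where it is drawn at the floor of 0.290 times the array median. For Apoe the wild-type replicate 1, at 51.1 times the array median, is the highest array.

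Apoa1, the main protein of HDL, had 1.88, 2.02 and 3.46 times the array median in mutant kidneys and 2.41, 3.07 and 3.19 times in wild-type kidneys. Below every wild-type animal lay 2 mutants, and 1 mutant lay above them all. The difference was -0.28 ± 0.29 log2 (limma, adjusted p = 0.706, 95% interval -0.91 to 0.35). Apoc1, a small inhibitor of lipoprotein uptake, had 0.859, 1.14 and 1.10 times in mutants and 0.528, 1.03 and 1.55 times in wild type. Only wild-type replicate 3 was above the low-signal limit, so no difference could be read at this signal (0.12 ± 0.49 log2, limma, adjusted p = 0.94). Apod, a lipocalin of fibroblasts and nervous tissue in other organs, had 1.09, 0.459 and 0.307 times in mutants and 0.947, 0.178 and 0.00446 times in wild type, all below the limit.

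**Figure D3:**
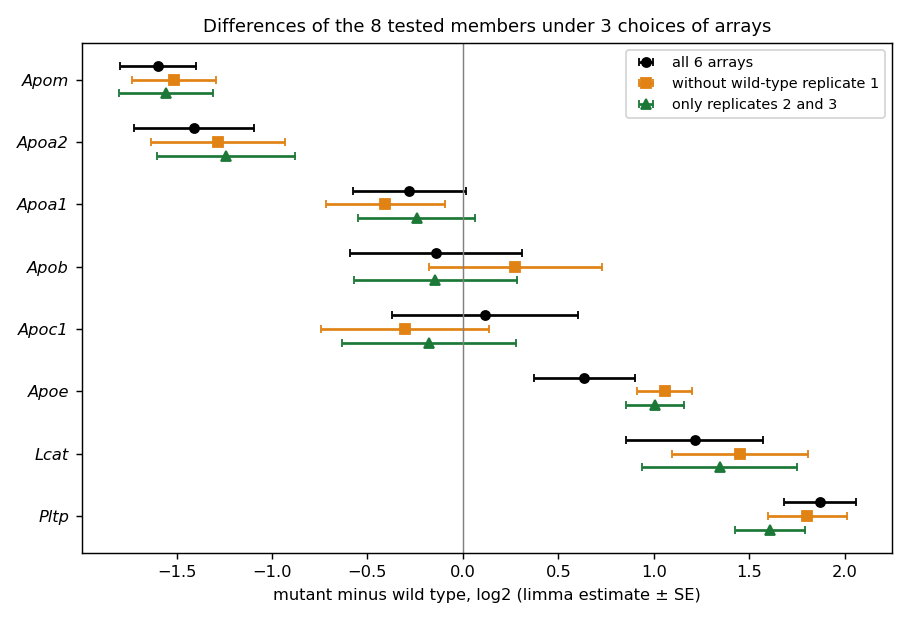
Difference of mutant minus wild type in log2 (horizontal axis, limma estimate ± SE) for the 8 tested members, with all 6 arrays (black), without wild-type replicate 1 (orange) and after dropping replicate 1 of both genotypes (green). Apoe stands at 0.64, 1.06 and 1.01 under these choices, Apob and Apoc1 change sign, and Apom and Pltp stay apart from 0.

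The kidneys also differed in the levels of cell type markers. Of 12 tested proximal tubule markers 5 fell, beside 1.59% of all genes. The summed level of all 12 was between 926 and 947 times the array median in mutants, against 1507 to 1748 times in wild type. Miox, the brightest of them, made up 308 to 375 of this sum in mutants and 644 to 738 in wild type. The 5 that fell differed by between -1.48 (Slc22a8, an organic anion transporter) and -0.64 (Pdzk1, a scaffold protein), beside -1.60 for Apom. Of 10 tested macrophage markers 8 rose, beside 5.67% of all genes, with a summed level of 178 to 265 in mutants and 41.7 to 48.4 in wild type. Adgre1, a defining macrophage marker, was below the low-signal limit on all 6 arrays. Of 10 fibroblast and stroma markers 8 rose, also beside 5.67%, with sums of 375 to 444 in mutants and 87.0 to 137 in wild type. Col3a1 made up 218 to 232 of these sums in mutants and 41.4 to 72.2 in wild type. The summed level of 6 hepatocyte and plasma protein genes was 104 to 133 in mutants and 70.5 to 131 in wild type, most of it Ttr, the thyroid hormone carrier transthyretin, with 81.5 to 113 in mutants and 57.7 to 119 in wild type. Of 5 tested, 1 rose, Trf, the iron carrier transferrin (1.07 ± 0.17 log2, limma, adjusted p = 0.0014). Albumin (Alb), the defining hepatocyte product, was above the limit on 1 of 3 arrays of each genotype. Of 6 tested endothelium markers 0 passed in either direction. The sum of all 8 on the array was 63.7 to 75.2 in mutants and 54.4 to 57.9 in wild type. The part of these markers in the values of Apom, Apoa2, Pltp, Lcat and Apoe was not tested.

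Genes beside the members in the genome were read for comparison, by their order in RefSeq (GRCm38.p6). The genes on either side of Apom, D17H6S53E and Bag6, each differed by 0.46 log2 without passing (limma, adjusted p = 0.505 and 0.353). Ctsa, which overlaps Pltp, differed by 0.07 ± 0.14, and Pcif1 on its other side by 0.22 ± 0.17. Tomm40l, which overlaps Apoa2, differed by -0.02 ± 0.15, while Fcer1g, the Fc receptor gamma chain of myeloid cells on its other side, rose, with 7.50, 5.13 and 5.27 times the array median in mutants, against 1.55, 0.446 and 1.58 times in wild type, at least 3.80-fold higher (limma, adjusted p = 0.00273). Slc12a4, next to Lcat, had 3.10, 2.11 and 2.60 times in mutants and 1.47, 1.38 and 1.30 times in wild type, all below the limit in wild type, so at least 1.71-fold higher without passing (limma, adjusted p = 0.132). Tomm40, next to Apoe, differed by -0.02 ± 0.15, and Apoc3, next to Apoa1, by -0.38 ± 0.24.

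The wider pathway was read through 8 lists of lipid transport genes with 103 genes, of which 88 were on the array with a single symbol and 77 were tested. Of these 77, 5 rose (6.49%, beside 5.67% of all genes) and 7 fell (9.09%, beside 1.59%), and the median differed by -0.04 log2. Without mutant replicate 2 or wild-type replicate 3 the number that fell was 1, and it was 3 without mutant replicate 1 or 3 or wild-type replicate 2. Over all genes tested, 235 fell with all arrays, 113 without mutant replicate 2 and 125 without wild-type replicate 3. In the other fits just named, between 149 and 158 of all genes fell. The number of list genes that rose was 9 without wild-type replicate 2, where 803 of all genes rose, beside 840 with all arrays. With no intensity trend the 1 list gene that passed was Clu.

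Receptors moved in both directions. Lrp1, the large endocytic receptor of stromal cells and macrophages that takes up Apoe-containing remnants, had 62.9, 31.1 and 22.3 times the array median in mutant kidneys, against 8.19, 9.54 and 8.68 times in wild-type kidneys. It rose by 2.00 ± 0.27 log2 (limma, adjusted p = 0.000495), lost with no intensity trend (0.0894) and in no other alternative. Cubn, the tubular receptor that binds apolipoprotein A-I, had 18.3, 9.76 and 15.2 times in mutants, against 23.0, 27.8 and 32.5 times in wild type. It fell by 0.98 ± 0.21 (adjusted p = 0.0128), but did not pass without mutant replicate 2 (0.0559) or wild-type replicate 3 (0.0709) or with no intensity trend (0.215). Lrpap1, the chaperone of both megalin and Lrp1, fell by 0.75 ± 0.17 (adjusted p = 0.021), and a second probe fell by 0.53 (0.0406). That call of the brighter probe was lost without mutant replicate 1 or 2 or wild-type replicate 3 (adjusted p of 0.0702 to 0.129) and with no intensity trend (0.17). Megalin itself, Lrp2, which binds Apom in the tubule, differed by -0.55 ± 0.18 with groups that did not overlap, and did not pass (adjusted p = 0.119).

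Among the other apolipoproteins, the 1 of 9 tested that passed was Clu, or apolipoprotein J, a secreted chaperone found on HDL. It had 158, 153 and 144 times the array median in mutant kidneys, against 39.5, 50.03 and 55.6 times in wild-type kidneys, and rose by 1.66 ± 0.16 log2 (limma, adjusted p = 2.5e-05), as it did in all 21 alternatives. Apoc3, an inhibitor of lipoprotein lipase, had 10.7, 7.17 and 7.48 times in mutants and 15.1, 11.5 and 7.33 times in wild type and did not pass (adjusted p = 0.469). Apoa4 was below the limit on every mutant array and above it on 2 of 3 wild-type arrays (adjusted p = 0.246), and Apoc2, the activator of lipoprotein lipase, was below it on all 6. Of 3 tested further lipocalins, the family of Apom and Apod, Ptgds, a prostaglandin D synthase, rose by 1.28 ± 0.16 (adjusted p = 0.000213), with 39.0, 37.5 and 40.0 times in mutants against 12.6, 16.6 and 19.4 times in wild type. Its call was lost with no intensity trend (0.0707) only. Rbp4, the plasma retinol carrier, was readable on all 3 mutant arrays but on 1 wild-type array, and its level, at least 1.44-fold higher in mutants, did not pass the test (adjusted p = 0.311). Ambp, the precursor of alpha-1-microglobulin, was below the limit on all arrays.

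Of 10 tested genes for the lipid that Apom carries, the 1 that passed was S1pr2, a sphingosine-1-phosphate receptor. It had 10.4, 11.2 and 12.1 times the array median in mutant kidneys, against 5.22, 3.93 and 4.05 times in wild-type kidneys, and rose by 1.36 ± 0.17 log2 (limma, adjusted p = 0.000256, and 0.0513 with no intensity trend). A second S1pr2 probe lay below the low-signal limit on all arrays. Plpp1, a phosphatase of lipid phosphates, had 78.2, 80.0 and 68.5 times in mutants, against 46.7, 61.1 and 48.9 times in wild type. Its groups did not overlap, and the difference of 0.54 ± 0.15 did not pass (adjusted p = 0.0534). S1pr1 and S1pr3 lay below the low-signal limit on all arrays. Spns2, which exports sphingosine-1-phosphate from cells, had 207, 193 and 170 times in mutants and 268, 294 and 291 times in wild type, and did not pass although the groups did not overlap (adjusted p = 0.0884). Of the kinases that make the lipid, Sphk2 differed by -0.13 ± 0.17, and Sphk1 was above the limit on 1 mutant array alone.

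Of 8 tested lipases and HDL-associated enzymes, 1 rose. Pla2g15, a lysosomal phospholipase related in sequence to Lcat, rose by 0.81 ± 0.16 log2 (limma, adjusted p = 0.00692) with 13.3, 10.8 and 10.6 times the array median in mutant kidneys, against 6.77, 6.03 and 6.91 times in wild-type kidneys, and lost its call with no intensity trend (0.138) only. A second Pla2g15 probe lay below the low-signal limit on all arrays and was not tested. Lpl, the lipoprotein lipase, had 82.8, 82.5 and 74.6 times in mutants and 93.1, 90.3 and 93.6 times in wild type, a difference of -0.21 ± 0.14 that did not pass (adjusted p = 0.511). Angptl4, an inhibitor of Lpl, differed by 0.83 ± 0.33 (adjusted p = 0.204) with wild-type values between 10.2 and 38.8. Gpihbp1, the endothelial anchor of Lpl, differed by 0.43 ± 0.18 (adjusted p = 0.226), and Pon2, a paraoxonase, by 0.38 ± 0.18 (0.301). Of 14 tested assembly and carrier genes, 3 fell. They were Scp2, a peroxisomal sterol carrier (-0.67 ± 0.16, adjusted p = 0.0216), Fabp3, a fatty acid binding protein (-0.54 ± 0.13, 0.0298), and Cideb, a lipid droplet protein of lipoprotein assembly (-0.53 ± 0.13, 0.0297). A second Scp2 probe differed by -0.57 (0.18) and a second Cideb probe by -0.12 (0.928). The calls of Scp2, Fabp3 and Cideb did not hold without mutant replicate 2 or 3 or wild-type replicate 2 or 3 (adjusted p of 0.0616 to 0.139), and those of Fabp3 and Cideb did not hold without mutant replicate 1 (0.0829 and 0.0849). All 3 calls were lost with no intensity trend (0.211 to 0.254), and that of Fabp3 with only replicates 2 and 3 (0.0591). Fabp1, the liver fatty acid binding protein, had 1.84, 0.438 and 1.41 times in mutants and 3.99, 1.87 and 2.70 times in wild type, at least 1.69-fold lower without passing (adjusted p = 0.153). Mttp, which loads lipid onto Apob, was above the limit on no array.

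Of 9 tested genes of cholesterol efflux and handling, 1 fell. Abca1, which loads cholesterol onto Apoa1, was below the low-signal limit on all 6 arrays. Nceh1, a cholesteryl ester hydrolase, fell by 0.67 ± 0.18 log2 (limma, adjusted p = 0.0382), with 5.34, 5.38 and 4.71 times the array median in mutant kidneys and 9.74, 7.96 and 7.11 times in wild-type kidneys. Its call was lost in each fit that left out 1 array (adjusted p of 0.0555 to 0.121), with only replicates 2 and 3 (0.132) and with no intensity trend (0.211). Ch25h, which makes 25-hydroxycholesterol, passed the limit on 2 mutant arrays and no wild-type array (adjusted p = 0.126). Npc2, a lysosomal cholesterol carrier, differed by 0.36 ± 0.14 (0.195) and Cyp27a1, a sterol hydroxylase, by 0.40 ± 0.23 (0.428). Among 14 tested transcription factors of apolipoprotein genes, the 1 that passed by its brightest probe was Hnf4a, the nuclear receptor that drives apolipoprotein genes in hepatocytes and is also made by the proximal tubule. It had 34.7, 41.2 and 36.2 times in mutants, against 67.0, 70.1 and 53.5 times in wild type, and fell by 0.76 ± 0.15 (adjusted p = 0.00685). The call was lost with only replicates 2 and 3 (0.0552) and with no intensity trend (0.165). The LXR alpha gene Nr1h3, a cholesterol sensor that drives Apoe and Pltp in macrophages, had 11.2, 8.63 and 11.4 times in mutants and 10.2, 12.6 and 9.93 times in wild type (-0.07 ± 0.16, adjusted p = 0.891). Cebpb, a factor of acute-phase genes, had 3.47, 4.31 and 3.53 times in mutants and 0.546, 1.99 and 1.95 times in wild type, at least 2.09-fold higher without passing (adjusted p = 0.0559). Of the COUP-TF receptors, Nr2f1 was above the limit on every mutant array and no wild-type array, at least 1.32-fold higher (adjusted p = 0.0884). The brightest probe of Nr2f2 differed by 0.51 ± 0.19 (0.163), while a dimmer Nr2f2 probe above the limit on all arrays rose by 0.78 ± 0.20 (0.0336), and the other one was below it on all arrays.

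**Figure D4:**
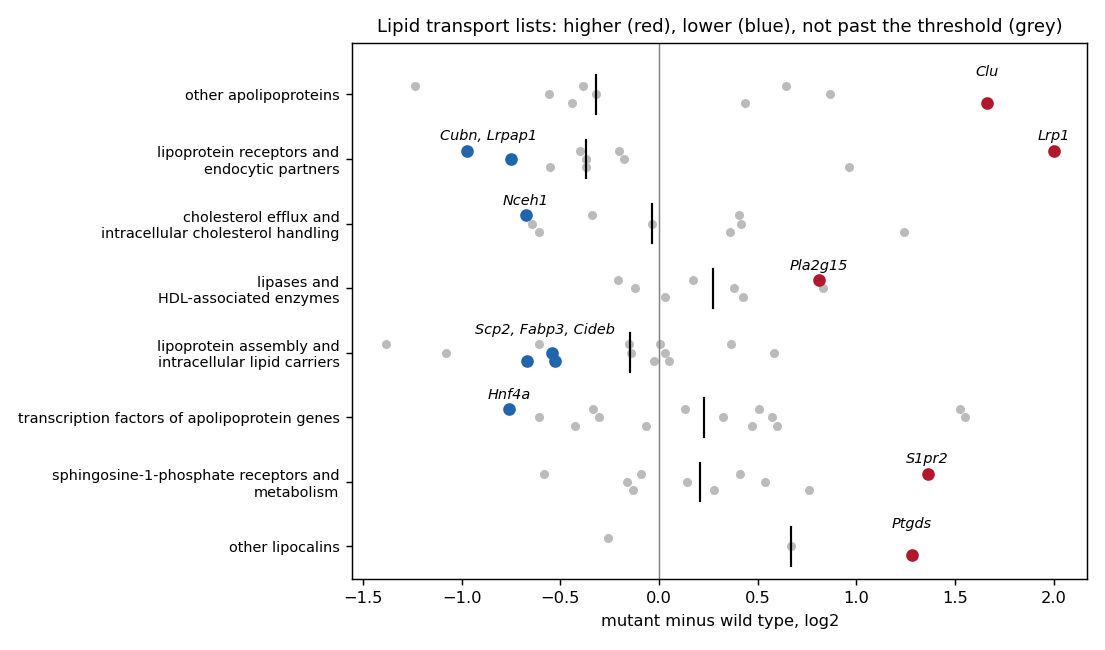
Difference of mutant minus wild type in log2 (horizontal axis) for the 77 tested genes of 8 lipid transport lists (rows), 1 point per gene. Red points rose, blue points fell, grey points did not pass an adjusted p of 0.05, and the black line is the median of a list. The 5 increases lie between 0.81 (Pla2g15) and 2.00 (Lrp1), and the 7 decreases between -0.98 (Cubn) and -0.53 (Cideb).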

How the data were processed

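Kidney RNA of 6 mice, 3 homozygous mutants and 3 wild types, was measured on 6 single-colour CodeLink arrays, 1 per animal, grouped by their titles. The deposited table held 1 linear intensity per probe and array. The values include negatives and have medians just under 1. Subtraction of background and scaling of each array before deposit were inferred from these values only. The sources used here do not name the software. Each array was divided by its median. Zero and negative intensities were dropped, a floor was set at the 10th percentile of the positive intensities (0.290 of the median), and log2 was taken. Probes with at least 2 values per genotype were kept, the lowest 25% by mean were left out, and 25834 were tested with limma 3.58.1 in R 4.3.3 (lmFit, eBayes with an intensity trend, two-sided, differences given as mutant minus wild type), with Benjamini-Hochberg adjustment over all of them. The code was tested on simulated arrays. Where 1 genotype's mean lay under the low-signal limit (mode of the linear values, 0.521, plus 3 times the spread below it, 0.329), its arrays were raised to at least that limit and the fold is given as a bound, for members beside the fitted difference. Such a bound holds for the means of these arrays and carries no sampling error. Where both means lay under the limit, no fold is given. Symbols came from the platform annotation, and 21462 of 21590 single-symbol probes matched RefSeq.

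The members, lists and tests were chosen with earlier results of these data known. Named are all members, up to 4 genes per list by smallest p and any that passed, genes beside the members, and the 4 genes most like Apom and Pltp. A few more, such as Lpl, Sphk2, S1pr1, Nr1h3, Abca1 and Mttp, were named for their role after their values were seen. The number of arrays limits the precision, and so does signal near the limit. Alternatives covered scaling, low values, filters, variance models, thresholds, a replicate block and left-out arrays.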

Additional observations from a re-analysis of the deposited data

How the results depend on the processing

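Under the alternatives Pltp kept its call in 21 of 21, Apom in 20 and Apoa2 in 15. Each member has 1 probe, so another probe could not be tried. Members that rose numbered 1, and 2 at an adjusted p of 0.1, 3 with array weights, 2 with only replicates 2 and 3, and between 1 and 3 with arrays left out in turn. Over all genes tested 840 rose, and 1105 did at an adjusted p of 0.1. The number was 969 with array weights, 502 with only replicates 2 and 3, and between 475 and 803 with arrays left out. Members that fell numbered 2, and 1 at an adjusted p of 0.01, 1 with only replicates 2 and 3, and between 1 and 2 with arrays left out. Over all genes tested 235 fell, and 88 at an adjusted p of 0.01, 208 with only replicates 2 and 3, and between 113 and 248 with arrays left out. Quantile normalization gave 700 increases and 403 decreases over all genes, cyclic loess 745 and 398, and array weights 969 and 353. The number of members that fell was 2 under each of these. In limma with no intensity trend, 0 members fell (2 at an unadjusted p under 0.05). Of the pathway list genes 5 rose, and 8 at an adjusted p of 0.1, 8 with the replicate block, 1 with no intensity trend, and between 5 and 9 with arrays left out. Of these genes 7 fell, and 1 at an adjusted p of 0.01, between 1 and 6 with arrays left out, and 0 in limma with no intensity trend (10 at an unadjusted p under 0.05). With no intensity trend every probe shares 1 prior variance whatever its signal, and 143 genes rose and 6 fell in all. The replicate numbers could not be shown to pair the animals. Deviations of same-numbered arrays correlated by 0.07, 0.02 and 0.07 over 22989 probes, although each array correlated best with its own number. Replicate 1 of both genotypes also stood apart in the sex-linked transcripts. With the replicate block 1 member rose and 2 fell, as without it, while over all genes 1084 rose and 363 fell. Under the block the adjusted p was 0.0512 for Lcat and 0.0569 for Apoe (limma). Of the members, Apod lay below the low-signal limit on all arrays and Apoc1 on all but 1. Apoa2, Apob and Lcat also had arrays below it, so their differences were limited by signal near background as well. The cause of the moves was not tested.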
